A study of Mus musculus with 17 samples.

Results

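Nt5e and Entpd1 encode CD73 and CD39, a pair of enzymes on the outer face of the cell membrane that turn extracellular ATP into adenosine. The members described here are the 2 rows of these names, of 47643 rows in the deposited table of gene counts, in all 17 libraries. They were chosen by their library-scaled counts in these same libraries and comparisons, so their levels and differences are given as a description without a test. The cells were Foxp3-GFP+ regulatory T cells (Tregs) sorted from the spleen of NOD mice, which become diabetic through autoimmunity. All 3 groups carried the Foxp3-GFP reporter, in which green fluorescent protein marks cells that express Foxp3. The control group was NOD.Foxp3-GFP (6 libraries), the knockout group was NOD-Nfkbid-KO.Foxp3-GFP (5 libraries) and the transgenic group was NOD-60A.Foxp3-GFP (6 libraries), which overexpresses Nfkbid. Its product is a nuclear member of the IkB family, regulators of the transcription factor NF-kB. Each control and knockout library was a pool of 2 samples and each transgenic library came from 1 sample, so genotype and pooling cannot be told apart in comparisons with the transgenic group. The transgenic mice are 1 line, and the promoter of the transgene, the sex and the age of the animals are not given in the sources used here. The labels give a single batch date, but the numbers in the library names fall into 4 runs. The first run holds all 6 transgenic libraries with control replicates 1 and 2, the knockout libraries form a run of their own, and control replicate 6 and control replicates 3 to 5 form the others. Within a run only transgenic and control libraries can be compared, and the knockout genotype and its run cannot be told apart.

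CD39 removes phosphates from extracellular ATP and ADP and leaves AMP, and CD73, which is held in the membrane by a lipid anchor, converts AMP to adenosine. ATP released from damaged cells acts on P2 receptors and promotes inflammation, whereas adenosine acts on receptors coupled to cyclic AMP (cAMP) and dampens T cell activation. Mouse Tregs are known for carrying both enzymes on their surface.

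Library totals ran from 3133388 to 4726615 counts, and 3 counts, the limit that a count of 0 allows in 1 library, corresponded to 0.623 to 1.04 CPM (library-scaled counts, with TMM factors and totals over the rows tested). Knockout replicates 2, 3 and 5 had 13476 to 13802 rows above 0, against 15039 to 17379 in all other libraries. The row names of this table are not secure. When the exons of every row were moved to higher coordinates by a distance proportional to their position on the chromosome, the agreement of counts with the exons met was highest at 0.45 kb per Mb, with a mean Spearman's rho across rows of 0.542 over 20 chromosomes against 0.521 unmoved. The reason for this offset was not established. Names below are those of the rows in the table, and levels are compared between libraries within a row, never between rows. The Foxp3 row held 318 ± 22.1 CPM in transgenic (SD, n = 6), 313 ± 40.9 in knockout (SD, n = 5) and 347 ± 15.5 in control libraries (SD, n = 6), and the Cd3d and Cd4 rows held at least 61.5 CPM in every library, while the Cd3e row held 3.09 CPM at most and the Tnfrsf18 row 0.303 at most. The Nfkbid row held 8.79, 4.75 and 4.57 CPM on average in transgenic, knockout and control libraries, and its moved exons met exons of Nfkbid at 0 of the 5 slopes tried from 0.35 to 0.55 kb per Mb, so it does not check the genotype labels. Moved exons of the Cd3d, Cd4, Cd3e and Tnfrsf18 rows likewise met their own genes at 0 of 5 slopes. The Cd3d, Cd4, Cd3e and Tnfrsf18 rows therefore do not check the cell type either. Moved exons of the Foxp3 row met Foxp3 at all 5 slopes, but Gm36995 first. On the X chromosome, where this row lies, rho was 0.386 at 0.45 kb per Mb and 0.491 unmoved. The best slope there was 0.2 kb per Mb (rho 0.491), below the 5 slopes tried. The scan thus does not settle what the Foxp3 row counts, and whether it checks the cell type was not tested.

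Sequence before the annotated starts of both genes is shown because both rows were higher in transgenic libraries, so that the letters upstream of them can be compared. All stretches are from RefSeq (GRCm38.p6, plus strand, 5′ to 3′), and capitals mark matches on either strand to 1 of 2 motifs, the GC box GGGCGG or TGACG, the core of the cAMP response element. For Nt5e, 2 stretches of 30 bases hold the matches (chr9:88327379-88327408 and chr9:88327579-88327608). GENCODE M21 starts Nt5e farther upstream, at 88327197, so both lie in its first exon. Entpd1 has 2 annotated starts. The window before the first (chr19:40612231-40612365) covers the 132 bases that separate Entpd1 from Tctn3, a gene of the primary cilium that is transcribed in the opposite direction. That stretch also takes in the first bases of Tctn3, which starts at 40612233, and its marked match lies across that start. The window before the second (chr19:40659520-40659769) lies in an intron of transcripts from the first.
Nt5e, bases -230 to -201: gtcaccgCCGCCCGCCCggggactgcggca
Nt5e, bases -30 to -1: ctgtccCCGCCCCGCCCtcctctactccgc
Entpd1, first start: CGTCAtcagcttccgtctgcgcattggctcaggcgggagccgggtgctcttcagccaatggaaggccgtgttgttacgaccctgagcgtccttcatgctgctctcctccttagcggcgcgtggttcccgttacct
Entpd1, second start: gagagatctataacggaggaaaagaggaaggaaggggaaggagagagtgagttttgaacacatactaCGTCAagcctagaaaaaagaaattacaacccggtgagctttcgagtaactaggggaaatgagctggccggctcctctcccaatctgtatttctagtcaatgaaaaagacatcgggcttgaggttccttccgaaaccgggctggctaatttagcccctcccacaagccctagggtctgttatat

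The motif search covered the 250 bases before each start. The Nt5e window held 4 overlapping GC box matches, as 2 pairs, and neither Entpd1 window held one, where 32.7% of 32851 mouse windows of that length hold at least 1. TGACG matched once before each Entpd1 start, at bases -135 and -183, and did not match before Nt5e, and 17.8% of all windows hold it. The whole element TGACGTCA, in 1.55% of windows, and the kappaB motif bound by NF-kB, in 7.25%, matched none of the 3. GC made up 72.0% of the Nt5e window, 62.4% of the first Entpd1 window and 47.2% of the second.

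CD73 transcripts, as the Nt5e row counts them, were higher in transgenic Tregs than in both other groups and did not separate knockout from control Tregs. The row (ENSMUSG00000032420, GRCm38 chromosome 9, 88327197 to 88372092, plus strand) had 1205 to 2403 counts per library. In transgenic replicates 1 to 6 it held 568, 706, 630, 691, 738 and 597 CPM. In knockout replicates 1 to 5 it held 459, 392, 512, 495 and 425 CPM, and in control replicates 1 to 6 it held 486, 458, 436, 468, 432 and 490 CPM. The lowest transgenic library, replicate 1, lay above the highest of all others, knockout replicate 3, and knockout and control libraries interleaved. Group means were 655 ± 66.8 CPM for transgenic (SD, n = 6), 457 ± 49.4 for knockout (SD, n = 5) and 462 ± 24.3 for control libraries (SD, n = 6).

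The log2 fold change of the Nt5e row was 0.50 (SE 0.09, a 1.42-fold difference) for transgenic against control, 0.52 (SE 0.09, 1.43-fold) for transgenic against knockout and -0.02 (SE 0.09) for knockout against control. These comparisons share libraries, and so are not independent of each other. Of the 9986 rows tested, 5.23% were called higher in transgenic against control and 4.66% had all transgenic above all control libraries. In transgenic against knockout these shares were 6.34% and 4.24%, and in knockout against control 1.89% of rows were called in either direction. Because the row was picked for this pattern, its place among those rows carries no weight. Within the first run of library numbers the transgenic libraries also lay above control replicates 1 and 2, with a log2 fold change of 0.47 (SE 0.14).

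CD39 transcripts, as the Entpd1 row counts them, differed between all 3 groups, with transgenic above control and control above knockout Tregs. The row (ENSMUSG00000048120, GRCm38 chromosome 19, 40612366 to 40741602, plus strand) was thinly covered, with 3 to 54 counts per library. Its CPM in transgenic replicates 1 to 6 were 10.7, 16.7, 15.8, 13.2, 15.7 and 10.7, from 31 to 54 counts. Control replicates 1 to 6 held 8.52, 6.19, 4.60, 5.20, 5.89 and 7.86 CPM, from 17 to 41 counts. Knockout replicates 1 to 5 held 0.804, 2.93, 2.00, 1.68 and 3.60 CPM, from 3, 9, 7, 6 and 11 counts. No library of one group reached into the range of another, although the 95% Poisson intervals of the 11 counts of knockout replicate 5 (5.5 to 19.7) and the 17 counts of control replicate 3 (9.9 to 27.2) overlapped. Knockout replicate 1, with 3 counts, was at the limit that a count of 0 allows. Such intervals and limits cover counting error only, since no source used here says whether the molecular identifiers were used.

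Group means of the Entpd1 row were 13.8 ± 2.66 CPM for transgenic (SD, n = 6), 6.37 ± 1.52 for control (SD, n = 6) and 2.20 ± 1.09 for knockout libraries (SD, n = 5). The log2 fold change was 1.10 (SE 0.25, 2.15-fold) for transgenic against control, -1.55 (SE 0.31, 0.341 of the control level) for knockout against control and 2.66 (SE 0.31, 6.30-fold) for transgenic against knockout. Rows called lower in knockout against control were 1.01% of those tested, and 1.66% had all knockout below all control libraries. Rows with transgenic above control above knockout and no overlap between any groups numbered 31, or 0.31%, and the Entpd1 row was chosen for being among such rows. Without knockout replicates 2, 3 and 5, the libraries with fewer rows detected, the value was -2.35 (SE 0.43) against control and 3.46 (SE 0.41) for transgenic against knockout. Within the first run of library numbers transgenic libraries lay above control replicates 1 and 2, the value being 0.89 (SE 0.28). In bulk RNA, fewer cells that carry an enzyme and less RNA per cell cannot be told apart.

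**Figure D1:**
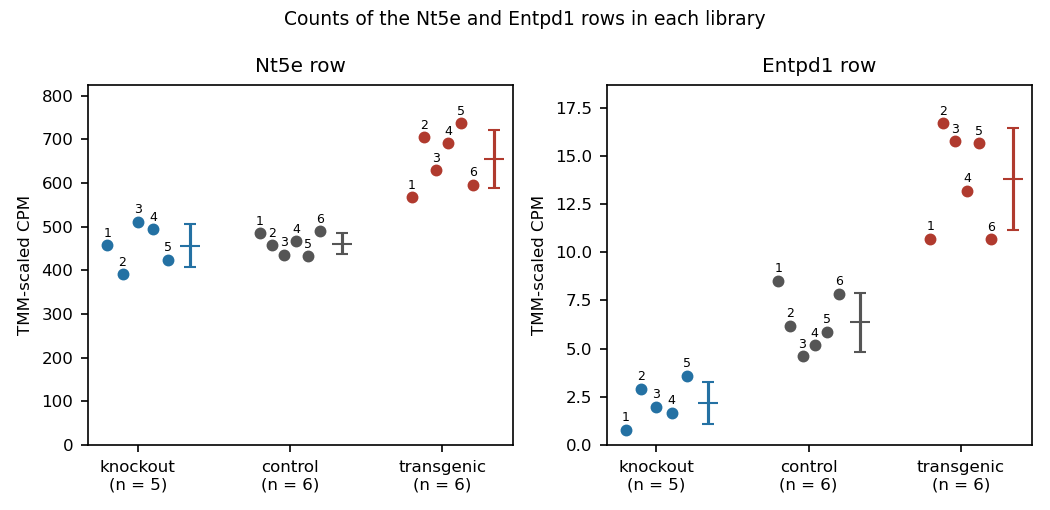
TMM-scaled CPM (y axes, from 0, a separate scale for each row) of the Nt5e row (left) and the Entpd1 row (right) in each library, numbered by replicate, with the group mean and SD beside the points. The 6 transgenic libraries lie above all others in both panels, and knockout libraries lie below the controls only in the Entpd1 panel.

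Spread within a group was larger for the Entpd1 row, with coefficients of variation of 19.3% in transgenic, 23.9% in control and 49.5% in knockout libraries, than for the Nt5e row, with 10.2%, 5.27% and 10.8%. Transgenic replicates 1 and 6 were the lowest of their group in both rows. Control replicates 1 and 6 were the highest of theirs in both. Within the transgenic group log2 CPM of the Nt5e and Entpd1 rows had Pearson r = 0.79 and Spearman rho = 0.66 over 6 libraries, and 0.64 without the 2 libraries farthest from the group median of the Nt5e row. Within the control group r was 0.78 and rho 0.66 over 6 libraries, r was 0.79 without the 2 farthest, and r was 0.37 when libraries were scaled by their totals only. These values are a description without a test, since both rows were chosen on the same counts. The 5 knockout libraries fell short of the minimum of 6 set for a correlation. There the replicates lowest in the Nt5e row, 2 and 5, were the highest in the Entpd1 row, so the order ran the other way from that of both other groups. Knockout replicates 2 and 5 also had the lowest TMM factors of their group (0.864 and 0.859). They were among the knockout libraries with fewer rows above 0. The part of this difference between libraries in the order was not tested.

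**Figure D2:**
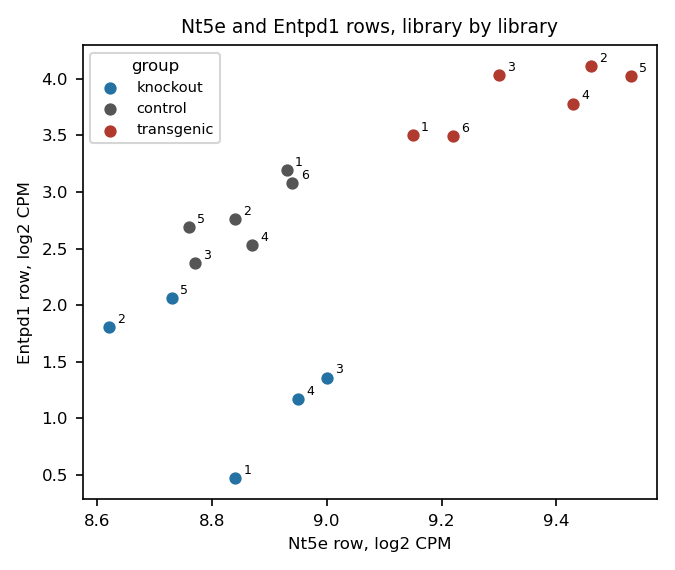
log2 CPM of the Nt5e row (x axis) against the Entpd1 row (y axis), 1 point per library, coloured by group and numbered by replicate. Transgenic libraries lie at the upper right, and knockout libraries spread wider than the controls on the x axis and lie lower on the y axis.

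Because of the offset between names and positions, the Nt5e and Entpd1 rows may hold reads of another stretch of the chromosome. On chromosome 9 the best slope was 0.45 kb per Mb (rho 0.561 against 0.479 unmoved), which moves the Nt5e row by about 40 kb. At 40 kb, 1915 of its 8602 exon bases met other exons of Nt5e itself and 510 met Snx14, a sorting nexin gene next to it. Own exons were met over 1657 bases at 38 kb and 1989 at 42 kb, and over 0 bases at 46 kb. The local estimate was not settled: over rows within 5 Mb of Nt5e the best move was 4 kb (rho 0.544 against 0.517 unmoved), where 1704 own bases were met and no other gene, and over rows within 10 Mb it was 34 kb (rho 0.546 against 0.534), where 353 own bases and 377 of Snx14 were met. At the 5 slopes from 0.35 to 0.55 kb per Mb, own exons were met at 3 and were the most overlapped at 2, with Snx14 first at the others. Whether the row counts reads of Nt5e thus depends on the move.

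The Entpd1 row may hold reads of a nearby gene. On chromosome 19 the best slope was 0.35 kb per Mb (rho 0.628 against 0.536 unmoved), and rows within 5 and within 10 Mb of Entpd1 both gave 12 kb (rho 0.68 against 0.627, and 0.677 against 0.606). At 12 kb, 336 of the 5580 exon bases of the row met other Entpd1 exons and 132 met Cc2d2b, the next gene downstream. At 14 kb 662 bases met Entpd1 and no other gene was met, while at 18 kb 151 met Entpd1 and 166 met Cc2d2b. Entpd1 exons were the most overlapped at 4 of the 5 slopes. At 12 and 14 kb most exon bases of the row met no annotated exon. The Tctn3 row, whose annotated start faces that of Entpd1, met Entpd1 exons first at some of the same slopes and its own at 1 of 5. The scan took no account of strand, and Tctn3 and Entpd1 lie on opposite strands. Whether reads of Entpd1 also lie under the name Tctn3 was thus not tested. The Tctn3 row held 118, 121 and 115 CPM in transgenic, knockout and control libraries.

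**Figure D3:**
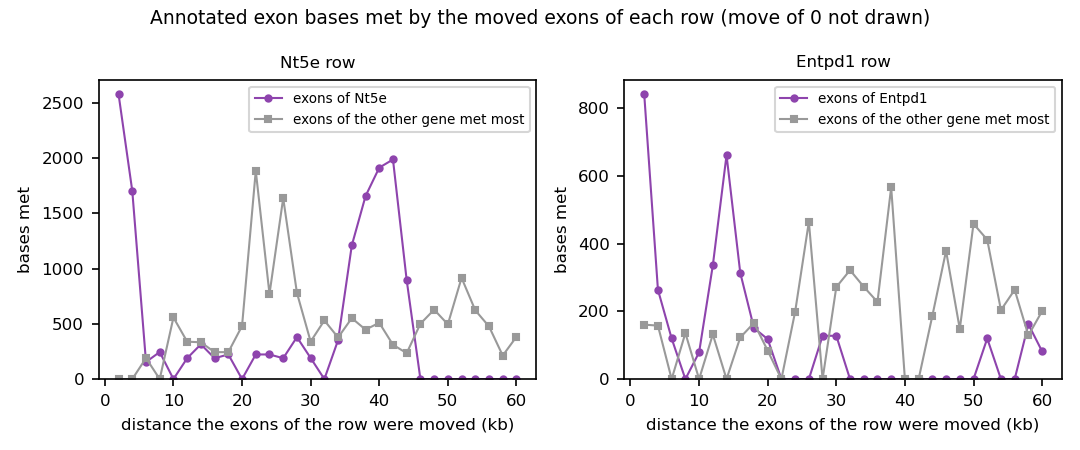
Bases of annotated exons met (y axes) when the exons of the Nt5e row (left) or the Entpd1 row (right) were moved to higher coordinates in steps of 2 kb (x axes), for the gene named by the row and for the other gene met most. Overlap of the Nt5e row with its own gene peaks near a move of 42 kb and that of the Entpd1 row near 14 kb, beside the overlap of short moves with the starting position.

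Neighbouring rows were read beside both members. Within 500 kb of Entpd1, 8 rows with a mean of at least 1 CPM were tested beside it. The Tctn3 row had log2 fold changes of 0.04 (SE 0.11) for transgenic against control and 0.08 (SE 0.11) for knockout against control. The Aldh18a1 row, named for a proline synthesis enzyme, had 0.19 (SE 0.18) and 0.14 (SE 0.18), and the Ccnj row, named for a cyclin, 0.37 (SE 0.38) and 0.94 (SE 0.39). The lowest adjusted p among these 8 rows in the 3 comparisons was 0.17 by the quasi-likelihood test of edgeR (Benjamini-Hochberg adjustment), whose threshold was 0.05. Within 500 kb of Nt5e, 5 rows were tested. The Snx14 row had -0.15 (SE 0.21) and 0.24 (SE 0.22), neither called. The Syncrip row, named for an RNA-binding protein, rose in knockout against control by 0.50 (SE 0.13, edgeR adjusted p = 0.044), and the Gm28229 row was higher in transgenic against knockout by 0.57 (SE 0.15, edgeR adjusted p = 0.015). The Syncrip call was lost in 20 of 28 alternatives, among them without any 1 control library, transgenic replicate 2, 3, 4, 5 or 6 or knockout replicate 2, 3 or 5, and the Gm28229 call in 1 of 28, the fit without knockout replicates 2, 3 and 5.

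**Figure D4:**
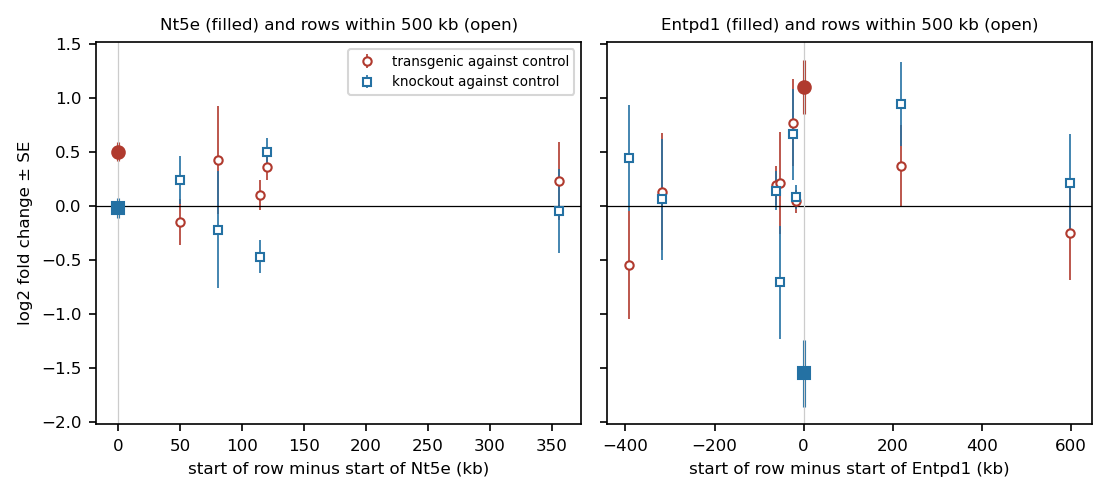
log2 fold change with its SE (y axis) of the Nt5e row (left) and the Entpd1 row (right), filled symbols, and of tested rows within 500 kb of each gene's ends, open symbols, by distance between row starts in kb (x axes). Circles are transgenic against control and squares knockout against control, and the filled Entpd1 symbols lie farthest from 0 on their panel.

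The rest of the pathway, from ATP release to the cAMP response, was followed in 7 lists of 78 genes other than Nt5e and Entpd1, of which 75 had a row and 38 were tested. In transgenic against control libraries 3 of 38 rows rose (7.895%, against 5.23% of all rows tested) and 1 fell (2.63%, against 2.17%). In transgenic against knockout 6 were higher (15.8%, against 6.34%) and 2 lower (5.26%, against 4.33%). In knockout against control edgeR called 0, with 3 higher and 5 lower at an unadjusted p under 0.05. DESeq2 called 1 lower there and limma with voom 0, while edgeR called 0.881% of all rows higher and 1.01% lower. The share of all rows at an unadjusted p under 0.05 is not given here. Counts at that limit, here and below, thus have no background beside them and are a description only. Median log2 fold changes of the 38 rows were 0.00, 0.06 and -0.04 in these comparisons, beside -0.01, 0.00 and -0.02 over all rows. Within the first run of library numbers the count of 3 was 1, while over all rows the 522 called higher and 217 called lower became 207 and 45. The count of 3 was 1 without transgenic replicate 1 or 6 or without control replicate 2, 4 or 6. In transgenic against knockout the count of 6 was 3 without transgenic replicate 2, 3 or 6. The count of 2 was 5 without transgenic replicate 1, and 1 without any 1 of transgenic replicates 2 to 5, knockout replicate 5 or a control library. In knockout against control, lower rows numbered 3 without knockout replicate 1, 2 without knockout replicate 4 and 1 without transgenic replicate 1 or knockout replicate 5.

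Among the other ectoenzymes that cleave nucleotides outside the cell, the Entpd8 row, named for another enzyme of the CD39 family, was ordered like the Entpd1 row. It held 8.02 to 15.5 CPM (median 9.45) in transgenic and 1.97 to 4.91 (median 4.29) in control libraries, and 0 to 2.29 (median 1.40) in knockout libraries. Transgenic libraries lay above both other groups, and knockout and control ranges overlapped. The row rose by 1.34 (SE 0.40, edgeR adjusted p = 0.044) in transgenic against control and by 3.27 (SE 0.51, edgeR adjusted p = 0.00015) in transgenic against knockout, and its log2 fold change in knockout against control was -1.94 (SE 0.53, edgeR adjusted p = 0.057). Leaving out any single library of the transgenic or control group ended the first call (values 1.18 to 1.40), while it held within the first run of library numbers (1.69, edgeR adjusted p = 0.035), and the second held in all 28 alternatives. The Entpd2 row, named for an enzyme that prefers ATP to ADP, was higher in transgenic against knockout by 1.92 (SE 0.60, edgeR adjusted p = 0.043) on 0 to 19 counts per library, a call that ended in 13 of 28 alternatives, among them leaving out transgenic replicate 2, 3, 4, 5 or 6, control replicate 1, 4 or 6 or knockout replicate 1, 4 or 5. The Enpp1 row, named for a pyrophosphatase that makes AMP from ATP, differed by -0.05 (SE 0.21) and -0.01 (SE 0.22) from control, neither called. The Acpp row, named for an acid phosphatase that cleaves AMP, had -0.36 (SE 0.24, edgeR adjusted p = 0.45) in transgenic and -0.77 (SE 0.25, edgeR adjusted p = 0.099) in knockout against control, neither called. At the slopes of 0.35 to 0.55 the Entpd8 and Entpd2 rows met Noxa1 and Npdc1 rather than their own exons. On chromosome 2, where both lie, no move at all gave the highest rho (0.505), close to the 0.502 at 0.45 kb per Mb. The scan thus does not settle what these rows count.

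The other NTPDases, which act mainly inside the cell, had 5 tested rows, and edgeR, DESeq2 and limma with voom each called 0. At an unadjusted p under 0.05, edgeR had 1 higher in knockout against control and 1 lower in transgenic against knockout. The Entpd6 row had the smallest p, with log2 fold changes of 0.35 (SE 0.15, edgeR adjusted p = 0.18) in knockout against control and -0.38 (SE 0.15, edgeR adjusted p = 0.11) in transgenic against knockout. Of 3 rows of 5′-nucleotidases related in name to CD73 that act inside the cell, the Nt5c3b row was higher by 0.47 (SE 0.12, edgeR adjusted p = 0.013) in transgenic against knockout, at 51.6 to 61.5 against 32.2 to 51.5 CPM, ranges that did not overlap. That call ended in 1 of 28 alternatives, the fit without knockout replicates 2, 3 and 5. The Nt5dc1 row fell by 1.00 (SE 0.31, edgeR adjusted p = 0.044) in the same comparison, a call lost in 18 of 28 alternatives, among them leaving out any 1 control library, transgenic replicate 2, 3, 4 or 5 or knockout replicate 1 or 5. Moved exons of the Entpd6 and Nt5c3b rows met their own genes at 0 of 5 slopes, so these rows may not count them. The Entpd6 row too lies on chromosome 2.

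On the side of ATP and adenosine sensing, 4 rows of ATP channels and P2 receptors were tested and edgeR, DESeq2 and limma with voom each called 0. At an unadjusted p under 0.05, edgeR had 1 higher and 2 lower in transgenic against control, 1 lower in knockout against control and 1 each way in transgenic against knockout. The P2rx7 row, named for the ATP-gated channel, had -0.68 (SE 0.26, edgeR adjusted p = 0.14) in transgenic against control and -0.66 (SE 0.28, edgeR adjusted p = 0.13) in transgenic against knockout. The Adora2a row, named for the main adenosine receptor of T cells, had a mean count of 0.47 and was not tested. The Adora3 row was higher by 0.32 (SE 0.09, edgeR adjusted p = 0.020) in transgenic against knockout, with 223 to 272 CPM (median 238) against 187 to 197 (median 195), ranges that did not overlap. It was 0.23 (SE 0.08, edgeR adjusted p = 0.10) against control, and the call ended in 5 of 28 alternatives, among them the fit without transgenic replicate 2. Its moved exons met Atp5f1 or Wdr77 first, so the row may not count the adenosine receptor. The Ampd2 row, named for an enzyme that deaminates AMP, had the smallest p among 3 rows of adenosine and AMP removal, at -0.94 (SE 0.32, edgeR adjusted p = 0.064) in transgenic against knockout. DESeq2 and limma with voom each called 1 row of that list lower in this comparison. Moved exons of the P2rx7, Adora2a and Ampd2 rows met their own genes at 0 of 5 slopes, so these rows may not count them.

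Among rows named for the cAMP response, the Crem and Pde4d rows stood out between transgenic and control libraries. The Crem row, named for a cAMP-responsive transcription factor, held 116 to 147 CPM (median 127) in transgenic, 66.3 to 95.3 (median 86.5) in control and 64.1, 97.7, 85.3, 85.8 and 138 CPM in knockout replicates 1 to 5. Transgenic and control libraries did not overlap, and the knockout libraries spread over both ranges. It rose by 0.63 (SE 0.14, edgeR adjusted p = 0.0063) in transgenic against control, a call that ended in 1 of 29 alternatives, the fit within the first run of library numbers (0.46, edgeR adjusted p = 0.11), and by 0.46 (SE 0.15, edgeR adjusted p = 0.05, under the threshold before rounding) in transgenic against knockout, a call lost in 19 of 28, among them leaving out any 1 transgenic library, knockout replicate 1, 2, 3 or 4 or control replicate 1, 2, 3, 4 or 5. Its moved exons met Crem at all 5 slopes and Crem first at 3. The Pde4d row, named for an enzyme that breaks down cAMP, fell by 0.50 (SE 0.12, edgeR adjusted p = 0.0083) in transgenic against control and by 0.52 (SE 0.12, edgeR adjusted p = 0.0074) in transgenic against knockout, the second in all 28 alternatives. The first ended in 1 of 29, the fit within the first run of library numbers (-0.44, edgeR adjusted p = 0.20). The row held 48.4 to 63.9 CPM in transgenic, 67.3 to 87.8 in control and 63.0 to 94.95 in knockout libraries, so the transgenic range met only that of the knockout. All transgenic lay below all control libraries in 2.45% of the rows tested. The Pde4d row met its own exons at 1 of 5 slopes, with no other gene first.

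The Gnas row, named for the G protein subunit that activates adenylate cyclase, rose by 0.58 (SE 0.16, edgeR adjusted p = 0.027) in transgenic against control, with 31.6 to 38.0 against 19.8 to 25.1 CPM. That call ended in 7 of 29 alternatives, among them leaving out transgenic replicate 1 or 6 or control replicate 2, 4 or 6 and the fit within the first run (0.57, edgeR adjusted p = 0.13). Moved exons of the Gnas row met Nelfcd or Gm20721 first, and this row too lies on chromosome 2, where the scan does not settle the names. The Atf1 row, named for a relative of the cAMP response factor, was higher in transgenic against knockout by 0.81 (SE 0.23, edgeR adjusted p = 0.025), lost in 5 of 28, among them without transgenic replicate 3 or 6 or knockout replicate 2. Its moved exons met Atf1 at 0 of 5 slopes. Of the 17 tested rows of the cAMP list, 2 (Gnas and Crem) rose and 1 (Pde4d) fell in transgenic against control (11.8% and 5.88%, against 5.23% and 2.17% of all rows). In transgenic against knockout 2 (Crem and Atf1) were higher and 1 (Pde4d) lower (against 6.34% and 4.33% of all rows), and the Gnas row had 0.32 (SE 0.17, edgeR adjusted p = 0.24) there.

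**Figure D5:**
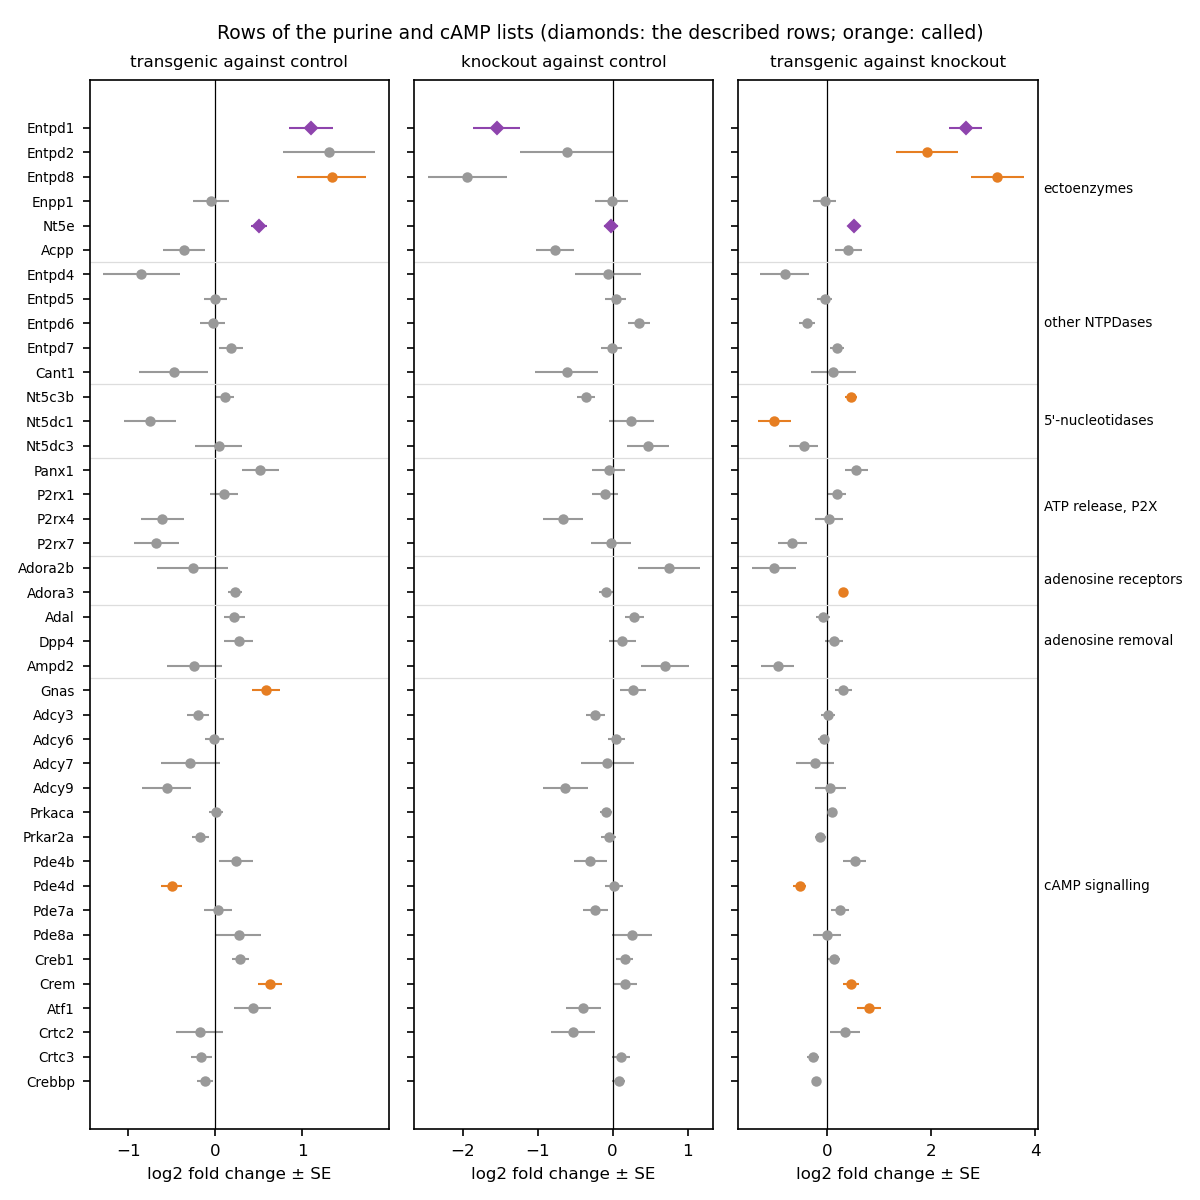
log2 fold change with its SE (x axes, a separate scale for each panel) of every tested row of the purine and cAMP lists (y axis) in the 3 comparisons. Diamonds are the Nt5e and Entpd1 rows, orange circles are rows called by edgeR at an adjusted p under 0.05 and grey circles are rows that were not called. Called circles appear in both transgenic panels and none in knockout against control.

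Of genes reported to regulate Nt5e or Entpd1, 12 of 16 rows were tested. Stat3 was the only one called by edgeR, higher in transgenic against knockout by 0.45 (SE 0.13, adjusted p = 0.031), at 87.8 to 152 against 70.7 to 91.0 CPM. That call was lost in 9 of 28 alternatives, among them without transgenic replicate 3, 4, 5 or 6 or knockout replicate 2 or 5. It made 8.33% of the 12 rows, near the 6.34% of all rows called higher in that comparison. Moved exons of the Stat3 row met Stat3 at 1 of 5 slopes, and Cavin1 was met first at others. In transgenic against control edgeR called 0, with 4 higher and 1 lower at an unadjusted p under 0.05, DESeq2 1 lower and limma with voom 0. In knockout against control edgeR, DESeq2 and limma with voom called 0, with 1 higher at an unadjusted p under 0.05. The Foxp3 row had -0.12 (SE 0.09) in transgenic against control, which was not called.

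Beside other surface or suppressive molecules of Tregs, the closest in shape to the Entpd1 row was Izumo1r, the Treg folate receptor, with 236 to 289 CPM in transgenic, 167 to 199 in control and 123 to 156 in knockout libraries and no overlap between groups. It rose by 0.58 (SE 0.09, edgeR adjusted p = 7.8e-05) in transgenic against control and fell by 0.35 (SE 0.09, edgeR adjusted p = 0.048) in knockout against control, the second call lost in 20 of 28 alternatives, among them leaving out any 1 control library, transgenic replicate 2, 3, 4, 5 or 6 or knockout replicate 2, 3 or 5. The Ikzf2 row, for the transcription factor Helios, rose in both, by 0.48 (SE 0.13, edgeR adjusted p = 0.021) and 0.53 (SE 0.13, edgeR adjusted p = 0.041). These calls were lost in 4 of 29 and 18 of 28 alternatives, the first among them without control replicate 2 or 3 and within the first run of library numbers (0.52, edgeR adjusted p = 0.11) and the second among them without any 1 control library, transgenic replicate 2, 3, 4, 5 or 6 or knockout replicate 2 or 5. The Nrp1 row, for the receptor neuropilin, fell by 1.20 (SE 0.33, edgeR adjusted p = 0.027) in transgenic against control, lost in 8 of 29, among them without transgenic replicate 5 or 6 or control replicate 1, 5 or 6 and within the first run (-1.12, edgeR adjusted p = 0.29). The Nrp1 row had 5 to 42 counts per library. The Ctla4 row, for an inhibitory receptor, was higher by 0.75 (SE 0.21, edgeR adjusted p = 0.021) in transgenic against knockout, lost in 2 of 28, among them without knockout replicate 3. Moved exons met their own gene at 3 of 5 slopes for the Izumo1r, Ikzf2 and Nrp1 rows and at 1 for the Ctla4 row, so these rows may not count the genes they name. Of the 11 tested rows of this list, 2 rose and 1 fell in transgenic against control, beside the 5.23% and 2.17% of all rows.

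CD39 and CD73 are also carried by B cells and myeloid cells, so markers of these and of other cell types were read beside both rows. The summed CPM of 10 myeloid marker rows was 175 to 233 in transgenic, 104 to 144 in control and 122 to 169 in knockout libraries. Of these 10, S100a8 and S100a9 had 0 counts in all libraries, 7 had a mean under 1 CPM and 3 were tested. The Mpeg1 row rose by 1.13 in transgenic against control (SE 0.17, edgeR adjusted p = 0.00013) in all 29 alternatives, and was higher by 0.62 (SE 0.18, edgeR adjusted p = 0.030) in transgenic against knockout, lost in 6 of 28, among them without transgenic replicate 2, 5 or 6 or knockout replicate 1 or 4. The Csf1r row had -0.47 (SE 0.19, edgeR adjusted p = 0.16) and the Cd14 row 0.21 (SE 0.14, edgeR adjusted p = 0.45) in transgenic against control, neither called. Moved exons of the Mpeg1 row met Dtx4 first, and those of the Csf1r row Hmgxb3. Those of the Cd14 row met Cd14 at 0 of 5 slopes.

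The summed CPM of 10 B cell marker rows was 180 to 273 in transgenic, 217 to 302 in control and 174 to 262 in knockout libraries, of which 3 rows were at 0 and 7 had a mean under 1 CPM. The sum of 6 dendritic cell marker rows was 71.9 to 86.4 in transgenic, 60.6 to 80.4 in control and 82.3 to 92.7 in knockout libraries, so knockout lay above control without overlap. Of these 6 rows, 2 had 0 counts in all libraries. The Zbtb46 row had a mean count of 242 and the Flt3 row 24.2, so the sum mostly follows Zbtb46. Moved exons of the Zbtb46 row met Zbtb46 at 0 of 5 slopes, and it lies on chromosome 2, where the scan does not settle the names. The share of all rows with knockout above control without overlap is not given here. The Flt3 row, named for a growth factor receptor, rose by 1.40 (SE 0.35, edgeR adjusted p = 0.041) in knockout against control and was lower in transgenic against knockout (log2 fold change -1.35, SE 0.35, edgeR adjusted p = 0.016). These calls were lost in 15 and 3 of 28 alternatives, the first among them without transgenic replicate 2, 3, 4 or 5, any 1 control library other than replicate 5, or knockout replicate 2 or 5. The second was lost, among others, without knockout replicate 2, and the moved exons of the row met Flt3 at 0 of 5 slopes. The sum of 6 follicular helper T cell rows was 183 to 247 in transgenic, 179 to 194 in control and 187 to 211 in knockout libraries. Its Cd200 row, named for an inhibitory surface protein, rose by 0.57 (SE 0.16, edgeR adjusted p = 0.027) in transgenic against control, lost in 6 of 29 alternatives, among them without transgenic replicate 1 or 2 or control replicate 3, 4 or 5 and within the first run of library numbers (0.47, edgeR adjusted p = 0.40). Moved exons of that row met Cd200 at 2 of 5 slopes, with Gm16011 or Gm609 first. NK cell rows summed to 6.22 to 26.0 CPM, CD8 rows to 1.64 to 17.9 and erythroid and platelet rows to 2.62 to 37.5 over all libraries, and in these 3 lists edgeR, DESeq2 and limma with voom called 0 rows, with 1 lower in transgenic against knockout at an unadjusted p under 0.05 by edgeR. The part of other cells in the Nt5e and Entpd1 values was not tested.

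The rows most like the Nt5e row over the 17 libraries, by Pearson's r of log2 CPM among the 5676 rows whose average log2 CPM was 3 or more, were Adam6b (r = 0.93), Gpc2 (0.93), Dynlt3 (0.92), Olfr1270 (0.92) and E2f3 (0.91). With each group centred on its own mean these were 0.58, 0.73, 0.67, 0.70 and 0.67. For the Entpd1 row they were Manbal (0.92), Oplah (0.91), Mcm3 (0.91), Dab2ip (0.90) and Ltb4r2 (0.89), and centred by group 0.52, 0.46, 0.67, 0.19 and 0.33. The 17 points share the 3 groups, so the first set of values mostly describes the group pattern. Log2 fold changes of the 5 rows most like the Entpd1 row were all above 0 in transgenic against control (1.27, 0.23, 0.53, 1.24 and 0.34 in the same order) and all below 0 in knockout against control (-1.02, -0.16, -0.45, -0.89 and -0.59). Those of the 5 rows most like the Nt5e row were 2.02, 1.88, 0.67, 1.23 and 1.06 in transgenic and -0.12, -0.79, -0.11, 0.26 and 0.02 in knockout against control. Because these rows were picked by likeness over the same libraries, the signs of their differences largely follow from the choice and carry no weight.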

How the data were processed

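RNA of 17 libraries of Foxp3-GFP+ spleen Tregs was read as 67 bp with a 9 bp molecular identifier, with 27 M reads stated for each, per the labels' protocols. Expected counts per gene were deposited by the authors, of which 5.87% are not whole, and these were rounded here. Alignment was with Bowtie2 to GRCm38 with Ensembl 102 transcripts, per the submitters' processing notes and the series' design text, and versions and the use of the identifiers are not given in the sources used here. Of 47643 rows, 47224 matched a position in GENCODE M21, and 0 columns belonged to no sample. Totals were 3133388 to 4726615 counts.

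All rows were fitted in 1 model with edgeR 4.0.16's quasi-likelihood test (R 4.3.3), TMM scaling, the filterByExpr filter and Benjamini-Hochberg adjustment over 9986 rows at 0.05, with a common biological coefficient of variation of 0.241. SEs were derived from the F statistic of each log2 fold change. log2 CPM used a prior count of 2. Library names carry separate identifiers, which the labels do not describe as animals, and p-values therefore reflect only the spread among the libraries, which may be technical. Tested on simulated data for transgenic against control (9762 rows), 6% of rows with a simulated log2 change of 0.5, 68.7% of those changed by 1 and 97% of those changed by 2 were recovered, with 9 false calls. For knockout against control (9836 rows) these were 3%, 62.7%, 97% and 6. The simulation gave every row the same biological coefficient of variation and set no library apart. In the data the spread differs between rows and between libraries, so these rates need not hold for them. DESeq2 1.42.0, limma 3.58.1 with voom, other normalizations and filters, fits of 2 groups, a replicate block and leaving libraries out were alternatives. A fit within the first run of library numbers, for transgenic against control, was added after seeing the data. Replicate numbers of the titles did not pair libraries, and every pair of libraries in a group differed by more than sampling noise.

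The members, the lists and the naming rule were chosen with earlier results of these data known. The rule names both members, Nfkbid and Foxp3, called members of each list (at most 6) or its smallest p, tested rows within 500 kb, and the 5 rows most alike, without predicted, clone-named and receptor-segment rows. Cd3d, Cd4, Cd3e, Tnfrsf18, Adora2a, Enpp1, Acpp, Mpeg1, Csf1r, Cd14, Flt3, Zbtb46, Cd200, S100a8 and S100a9 were named after their values were seen. The offset scan (33 slopes, moves of 2 kb, an overlap of at least 67 bp) and the motif search were chosen after seeing the files, and windows of other sizes had been viewed first. The scan counted exons met on either strand. Correlations (scipy 1.17.1) are given without a p, since both rows were chosen on these counts.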

Additional observations from a re-analysis of the deposited data

Results flagged for a closer look

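Of 72 groups of values in 24 rows, in 8 the highest or lowest library stood far from its nearest neighbour, and chance flags about 1 in 20 groups. Transgenic replicate 1 was the highest of its group in the Ampd2 row at 19.0 CPM, in the Ctla4 row at 169 CPM, in the Ikzf2 row at 265 CPM and in the Syncrip row at 56.0 CPM. Transgenic replicate 2 was the highest of its group in the Entpd8 row at 15.5 CPM, and control replicate 2 the lowest of its group in that row at 1.97 CPM. Control replicate 5 was the highest of its group in the Ampd2 row at 15.0 CPM. Knockout replicate 2 was the lowest of its group in the P2rx7 row at 8.79 CPM. The Nt5e and Entpd1 rows had no library set apart in this way.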

How the results depend on the processing

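Over 28 alternatives, and 29 in transgenic against control, the log2 fold change of the Nt5e row ran from 0.44 to 0.54 in transgenic against control, from 0.47 to 0.58 in transgenic against knockout and from -0.14 to 0.05 in knockout against control. That of the Entpd1 row ran from 0.89 to 1.22, from 2.44 to 3.46 and from -2.35 to -1.33, with the last 2 extremes, 3.46 and -2.35, without knockout replicates 2, 3 and 5. Correlation of the rows was 0.37 with library totals only in the control group (0.68 to 0.90 leaving out 1 library) and 0.85 in the transgenic group (0.66 to 0.92). Rows called higher and lower in knockout against control were 88 and 101. They were 223 and 348 without a filter, 305 and 268 by DESeq2, 34 and 42 with only the 2 groups, 23 and 44 with a replicate block and 10 and 33 without knockout replicates 2, 3 and 5, and 49 and 50 were higher with library totals only and by limma with voom. In transgenic against control 522 and 217 became 785 and 441 with only the 2 groups and 879 and 469 without those 3 libraries, and 207 and 45 within the first run of library numbers, and in transgenic against knockout 432 lower became 203 with only the 2 groups, 214 with a replicate block and 208 without those 3. Leaving out 1 library gave 29 to 592 higher and 55 to 532 lower in knockout against control, with both highest values without knockout replicate 4, 140 to 280 lower in transgenic against control and 262 to 826 lower in transgenic against knockout. Of the 38 purine and cAMP rows, 3 higher in transgenic against control became 5 with only the 2 groups, 5 without those 3 libraries, and 1 with a replicate block or within the first run, where 1 lower became 0. In transgenic against knockout 6 higher became 3 with only the 2 groups and 2 with a replicate block, and 2 lower became 1 with library totals only, no filter, the 2 groups, a replicate block or without those 3. In knockout against control 0 lower became 1 with library totals only, no filter or DESeq2. Leaving out 1 library gave 1 to 3 and 3 to 5 higher and 1 to 5 lower in the transgenic comparisons in that order, and 0 to 3 lower in knockout against control. Of 28 calls of named rows, 5 held in all alternatives and 0 reversed. Same-numbered libraries did not deviate together, with 1 of 15 correlations over 0.1 (-0.517 to 0.364), so the replicate block pairs libraries by a number only. The causes of these changes were not tested. Counts of 3 to 11 in knockout libraries limit the precision of the Entpd1 row.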
